A study of Mus musculus with 768 samples.

Results

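The symbols of 10 transcription factors that set the fate of natural killer (NK) cells and type 1 innate lymphoid cells (ILC1) were looked up in 726 single cells sorted from mouse tumors. They were Eomes, Tbx21, Irf8, Zeb2, Prdm1, Id2, Nfil3, Gata3, Tox and Zfp683, chosen by symbol. Of these 10 genes, 9 had an entry among the 24490 gene entries of both plates. Zfp683, which encodes Hobit, was not analysed here.

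The cells came from MTAP1A tumors, which grow from a methylcholanthrene-induced fibrosarcoma line of a Tap1-deficient mouse and carry little MHC class I. Both groups were male mice of the C57BL/6 strain bearing this tumor, either WT or PD-1-/-, the second with a deletion in Pdcd1 in all their cells. No other allele or agent was named for either group. Viable cells positive for NK1.1 and negative for CD3 from the pooled tumors of 3 mice of each genotype were sorted into 1 plate each, 768 wells on both plates together, and full-length transcripts were read by SMART-SEQ2, a method without molecular identifiers. Genotype and plate cannot be told apart, the mouse a cell came from is not known, and no test between genotypes could be made.

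Wells with 1000 to 3500 detected genes were kept, which left 726 cells, 360 of them WT and the rest PD-1-/-. The median number of reads that a kept well had been scaled to was 316292 (1428 to 496573) on the WT plate and 336582 (1478 to 552975) on the PD-1-/- plate, and a cell held a median of 2264.5 and 2262.5 detected genes. Levels are in RPKM, which scales reads to the length of the transcript and to the depth of the well, so that levels of different genes can be set side by side. A gene was counted as detected above 0 RPKM. Where an interval follows a share of cells, it is the exact (Clopper-Pearson) 95% interval, which covers counting error only. Some shares are given without one. The label NK cell was checked against the NK-like markers: Ncr1, encoding NKp46, was detected in 90.8% of cells on the WT plate and 91.8% on the PD-1-/- plate, and Klrb1c, encoding NK1.1, in 96.1% and 97%. Despite the sort against CD3, transcripts of Cd3d, Cd3e or Cd3g were found in 65 WT cells (18.1%) and 83 PD-1-/- cells (22.7%). The 7 NK-like markers were each in 89.3% or more of the cells of either plate, and the 10 T-like markers each in 16.9% or fewer. Markers of the other cell types were rarer still, each in at most 1.91% of cells for ILC2, 0.278% for ILC3, 6.39% for myeloid cells, 0.82% for B cells and 10.4% for cycling cells.

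Rows A and B of the WT plate stood apart from the rest of it. Of their 38 kept cells, 52.6% held CD3 transcripts, against 14% of the cells in rows C to P. They also held 14 of the 28 WT cells with Cxcr6, and Eomes was detected in 39.5% of them against 64.6% in the other rows. The differences of Eomes by Cxcr6 and by Itga1, of Cxcr6 by Eomes, and of the surface genes between genotypes are therefore also given without these wells, and other WT values include them.

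EOMES and T-bet, the product of Tbx21, are paired T-box factors. Conventional NK cells need both for their maturation, whereas ILC1 depend on T-bet and usually lack EOMES. ID2 and NFIL3 act early in innate lymphoid development, GATA3 and TOX act in its early stages too, and ZEB2, BLIMP-1 (Prdm1) and IRF8 act later, in maturation and effector function. CXCR6 and CD49a, the product of Itga1, are surface molecules of tissue-resident cells and ILC1, while S1PR5 is the receptor by which mature NK cells leave tissues.

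The 9 genes lie apart from each other in the genome. On GRCm38.p6, RefSeq places Eomes on the plus strand at chr9:118478186-118486132 and Tbx21 on the minus strand at chr11:97098007-97115331. Irf8 is at chr8:120736358-120756694, Zeb2 at chr2:44983512-45117442, Prdm1 at chr10:44437174-44528558, Id2 at chr12:25093799-25096092, Nfil3 at chr13:52967209-52982878, Gata3 at chr2:9857078-9887953 and Tox at chr4:6686353-6991557, all of them protein-coding. To show the DNA in front of the pair that separates NK cells from ILC1, the 250 bases before a transcript start site in RefSeq are printed here in the direction of transcription, which for Eomes end 3 bases inside the gene as placed above. Capitals mark matches to 2 of the 5 short motifs searched on both strands, which were the T-box site TCACACC, the ZEB-type E-box CACCTG, the IRF element AANNGAAA, the GATA site AGATAA and the NFIL3 site TTACGTAA.

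Eomes promoter, plus strand, chr9:118477939-118478188: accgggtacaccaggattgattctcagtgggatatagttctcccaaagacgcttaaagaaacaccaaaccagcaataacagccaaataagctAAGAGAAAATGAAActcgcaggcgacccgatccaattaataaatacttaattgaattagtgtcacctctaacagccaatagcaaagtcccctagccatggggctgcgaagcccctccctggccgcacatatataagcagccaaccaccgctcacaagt

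Tbx21 promoter, minus strand, chr11:97115332-97115581: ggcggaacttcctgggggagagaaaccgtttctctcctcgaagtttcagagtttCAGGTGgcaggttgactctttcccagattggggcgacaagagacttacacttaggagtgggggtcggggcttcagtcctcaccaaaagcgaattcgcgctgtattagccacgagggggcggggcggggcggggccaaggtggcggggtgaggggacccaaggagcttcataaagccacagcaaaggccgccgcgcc

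The Eomes window held 2 overlapping matches to the IRF element, and the Tbx21 window held 1 match to the E-box, on the opposite strand and therefore read here as CAGGTG. Of 32851 RefSeq promoter windows of this length, 21.3% held the IRF element and 17.2% the E-box. Windows were found for 8 of the factors, 12 in all. The IRF element was in 4 of them, before Eomes and Zeb2, and the E-box in 3, before Irf8, Prdm1 and Tbx21. Zeb2 had several windows with the IRF element, and some of these overlapped, so the windows do not count genes. The T-box site was in 0 of the 12, against 3.33% of all windows, the GATA site in 0 against 9.99% and the NFIL3 site in 0 against 0.113%. A match is a run of letters and not a binding site.

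The factors differed widely in how many cells they were found in. Id2, an inhibitor of E proteins on which innate lymphoid cells depend, was detected in 97.2% (95 to 98.7) of cells on the WT plate and 97.5% (95.4 to 98.9) on the PD-1-/- plate. Irf8, a factor needed for NK cell effector function, was detected in 71.9% (67 to 76.5) and 71% (66.1 to 75.6). For Tbx21 the shares were 65.6% (60.4 to 70.5) and 70.5% (65.5 to 75.1). Thus Irf8 and Tbx21 were not separated by their intervals on either plate. Eomes followed, in 61.9% (56.7 to 67) and 55.2% (49.9 to 60.4) of cells, overlapping with Tbx21 on the WT plate and below it on the PD-1-/- plate.

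The other 5 factors were each found in fewer than 50% of cells. Gata3, which innate lymphoid precursors need and ILC2 express most, reached 42.5% (37.3 to 47.8) of WT cells and 43.7% (38.6 to 49) of the others, and Nfil3, a factor required for NK cell development, in 36.9% (31.9 to 42.2) and 38% (33 to 43.2). Tox, a factor of early lymphoid precursors, was in 22.8% (18.5 to 27.5) and 26.2% (21.8 to 31.1). Gata3 and Nfil3 overlapped on both plates, and Tox lay below both. Prdm1, encoding the repressor BLIMP-1, was detected in 16.4% (12.7 to 20.6) and 17.5% (13.7 to 21.8), and Zeb2, a repressor that drives the last steps of NK cell maturation, in 13.3% (9.997 to 17.3) and 12.3% (9.11 to 16.1). These last intervals overlapped too, and the order of the 9 shares was the same on both plates.

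**Figure D1:**
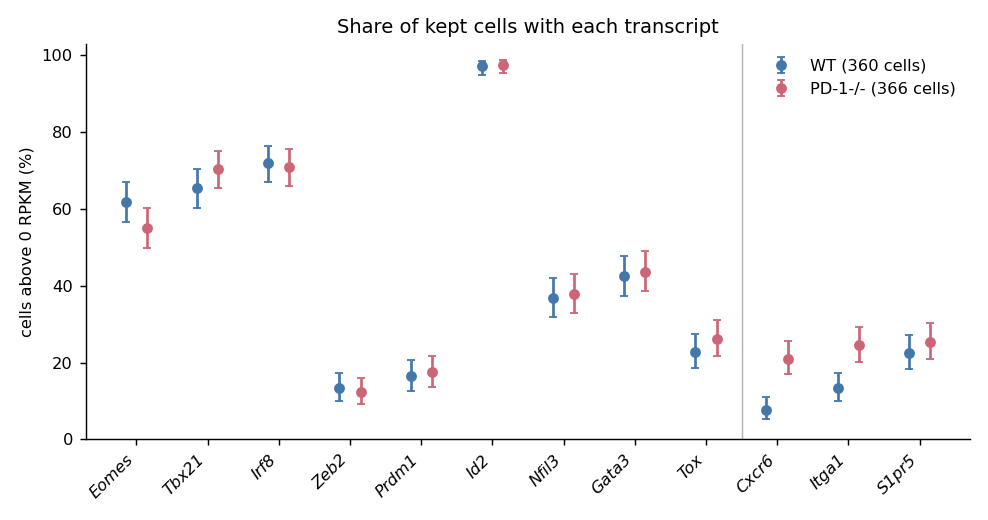
Share of kept cells (percent, y axis) in which each factor, Cxcr6, Itga1 and S1pr5 was detected, for the 726 kept cells by genotype, with exact 95% intervals as bars. Id2 is close to 100% on both plates, Irf8, Tbx21 and Eomes lie between 55.2% and 71.9%, and the other 5 factors lie below 50%.

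The order by level was not the order by share. Mean RPKM over all kept cells was highest for Id2 (1252 WT, 1510 PD-1-/-), then Irf8 (341.1 and 289.7), Tbx21 (173.4 and 200.7) and Nfil3 (102.3 and 109.9). Eomes followed with 88 and 75.5, although it was found in many more cells than Nfil3. Where it was detected, Nfil3 had a median of 236.8 RPKM in WT cells (quartiles 135.9 and 363.2) and 265.9 in PD-1-/- cells (150.1 and 360.6), and Eomes a median of 100.9 (26 and 198.8) and 107.4 (23.3 and 195.2). Nfil3 was thus found in fewer cells and, where found, at a higher level than Eomes on both plates, though the quartile ranges overlapped.

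Among the other factors, Id2 had a median of 1102 RPKM in detected WT cells and 1347 in PD-1-/- cells, Irf8 of 291.3 and 263.1, and Tbx21 of 194.7 and 227.6. The median of Gata3 was 76.2 and 71.1, and that of Prdm1 45.7 and 63.2. Zeb2 had a median of 14.5 and 9.93 RPKM and a mean over all cells of 3.57 and 2.45, the lowest of the 9. Tox was uneven: its median was 19.4 and 5.51 RPKM, but its upper quartile was 118.9 and 115.5. Of the cells with Tox, 40.2% and 44.8% held only 1 to 3 reads of it, against 25% and 17.8% for Zeb2 and 10.8% and 13.9% for Eomes. At the stricter limit of 10 RPKM, Tox was found in 11.9% of cells on the WT plate and 12.6% on the other, Zeb2 in 7.78% and 6.01%, and Eomes in 50.8% and 43.4%.

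**Figure D2:**
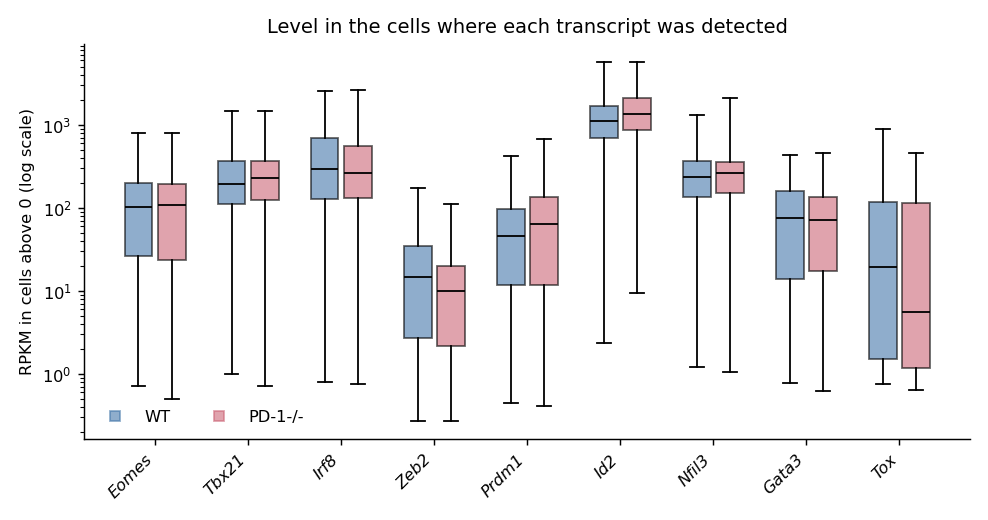
RPKM (y axis, log scale) of each factor in the cells in which it was detected, WT and PD-1-/- side by side. Boxes give the quartiles and the median, whiskers the lowest and highest cell. Id2 has the highest median on both plates, and Zeb2 has the lowest single cell.

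A cell held a median of 4 of the 9 factors on both plates. None of the 726 cells held all 9, and 2 WT and 5 PD-1-/- cells held 8. At the other end, 3 WT cells held none.

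Eomes and Tbx21 were both detected in 40.6% (35.4 to 45.8) of WT cells, and the product of their 2 shares was also 40.6%. A further 77 WT cells (21.4%) held Eomes only, 90 (25%) held Tbx21 only, and 47 (13.1%) held neither. Tbx21 was found in 65.5% (58.8 to 71.7) of the WT cells with Eomes and 65.7% (57.1 to 73.6) of those without it. The difference was -0.22 percentage points, with a 95% interval of -10.5 to 10.4, so that no association of the pair was detectable at this number of cells.

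The share of Tbx21-only cells was higher on the PD-1-/- plate than on the WT plate (25%, 20.6 to 29.8), with intervals that overlapped. Both factors were in 36.1% (31.1 to 41.2) of PD-1-/- cells, against a product of 38.9%. Eomes alone was found in 70 cells (19.1%), Tbx21 alone in 34.4% (29.6 to 39.5) and neither in 38 cells (10.4%). Tbx21 was in 65.3% (58.3 to 71.9) of the cells with Eomes and 76.8% (69.6 to 83.1) of those without, a difference of -11.5 points (-20.8 to -1.74). It was -12.7 points in cells below the plate's median number of genes and -11.9 in those at or above it, and -6.67 where at least 10 RPKM counted as detected. The difference between the plates was not tested.

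The levels of the T-box factors were also compared within cells. In cells with both, the median was 111.4 RPKM for Eomes and 187.4 for Tbx21 on the WT plate, and 121.8 and 211.1 on the PD-1-/- plate. Eomes was the higher of the 2 in 44 such WT cells (30.1%) and 39 such PD-1-/- cells (29.5%). Across these cells of 1 library each, the Pearson r of log2(RPKM + 1) was -0.08 and 0.06, both close to 0. Over all cells with the gene, Eomes ran from 0.71 to 793.2 RPKM in WT and from 0.5 to 793.6 in PD-1-/- cells, and Tbx21 from 0.99 to 1468 and from 0.72 to 1463. Tbx21 was at a median of 210.8 and 233.9 RPKM in cells without Eomes, near its median in cells with both.

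**Figure D3:**
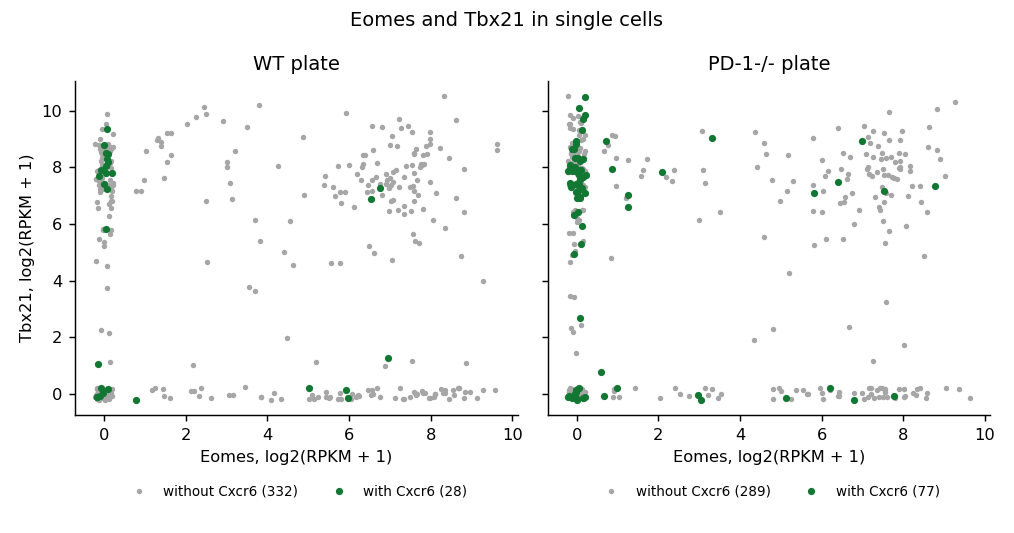
Eomes (x axis) against Tbx21 (y axis), each as log2(RPKM + 1), 1 point a cell, WT and PD-1-/- in separate panels, with cells at 0 spread slightly for sight and cells with Cxcr6 in a second color. Cells with both factors make up 40.6% of the WT and 36.1% of the PD-1-/- panel, and cells with Cxcr6 lie mostly where Eomes is 0.

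The 4 groups of cells differed in some other transcripts and in their number of detected genes. Its median was 2322.5 in WT and 2402 in PD-1-/- cells with both factors, against 1909 and 1995 with neither. Cxcr6 was detected in 2.05% (0.43 to 5.89) of WT cells with both factors, in 5.19% (1.43 to 12.8) with Eomes only, in 16.7% (9.64 to 26) with Tbx21 only and in 12.8% (4.83 to 25.7) with neither. On the PD-1-/- plate these shares were 9.09% (4.79 to 15.3), 11.4% (5.07 to 21.3), 35.7% (27.4 to 44.7) and 31.6% (17.5 to 48.7). On both plates the shares with Cxcr6 were thus higher in the groups without Eomes, whether or not Tbx21 was found. Several WT intervals overlapped, as did those of Eomes only and neither on the PD-1-/- plate. Ncr1 was in 95.9% and 96.2% of the cells with both factors and in 86.7% and 88.1% of those with Tbx21 only, so that most Tbx21-only cells carried this NK and ILC1 receptor. CD3 transcripts were in 14.4% and 15.2% of the cells with both and in 22.2% and 27% of the Tbx21-only cells, and their part in the make-up of these groups was not tested.

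Cells with Cxcr6 held Eomes less often than the rest. On the WT plate, 7 of the 28 Cxcr6-positive cells had Eomes (25%, 10.7 to 44.9), against 65.1% (59.7 to 70.2) of the Cxcr6-negative ones. On the PD-1-/- plate, 20 of the 77 Cxcr6-positive cells had it (26%, 16.6 to 37.2), against 63% (57.1 to 68.6). The differences were -40.1 points (-55.3 to -19.5) and -37.0 points (-47.9 to -24.3), with intervals that did not overlap on either plate. Where it was detected, Eomes had a median of 61.5 RPKM in the 7 WT cells with Cxcr6 and 103.98 without, and of 8.08 in the 20 PD-1-/- cells with Cxcr6 and 130.3 without.

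Cells with Cxcr6 carried CD3 transcripts more often (64.3% on the WT plate and 42.9% on the other, against 14.2% and 17.3% of the rest), and CD3-positive cells held Eomes less often (52.3% against 64.1%, and 43.4% against 58.7%). With all of these left out, Eomes was in 30% of 10 WT cells with Cxcr6 against 65.3%, and in 27.3% of 44 PD-1-/- cells against 64.4%, so that the difference (-35.3 and -37.2 points) was about as large without them. In rows C to P it was -30.2 points with 14 WT cells and -36.8 with 71 PD-1-/- cells. Over 9 alternatives it ranged from -49.6 to -20.3 points on the WT plate and from -47.2 to -34.0 on the PD-1-/- plate.

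None of the other 8 factors differed by at least 10 points in the same direction on both plates. Irf8 came nearest. On the WT plate it was in 50% (30.6 to 69.4) of cells with Cxcr6 and 73.8% (68.7 to 78.4) without, and on the PD-1-/- plate in 63.6% (51.9 to 74.3) and 73% (67.5 to 78), differences of -23.8 (-43.7 to -3.79) and -9.37 (-22.2 to 2.63) points. In cells thinned to 100000 reads both passed, at -24.0 and -15.1. Tbx21 was in 64.3% and 74% of cells with Cxcr6, against 65.7% and 69.6% without, differences of -1.38 (-22.2 to 16.5) and 4.48 (-7.94 to 15.4) points. Without CD3-positive cells they were 24.7, with 9 of 10 WT cells, and -1.93. Gata3 went in opposite directions, 57.1% against 41.3% of WT cells and 36.4% against 45.7% of PD-1-/- cells. Of all 8575 genes found in at least 5% of kept cells, 1.61% were at least 10 points higher with Cxcr6 on both plates and 0.805% were lower, against 0 and 1 of the 9 factors. The median difference over the factors was -5.21 and -4.05 points, and over all genes 0.99 and 0.53.

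Cells with Itga1 held Eomes less often too, but on the WT plate the difference depended on which cells were kept. Eomes was in 24 of 48 Itga1-positive WT cells (50%, 35.2 to 64.8) and 63.8% (58.2 to 69.1) of the negative ones, and in 30 of 90 Itga1-positive PD-1-/- cells (33.3%, 23.7 to 44.1) and 62.3% (56.3 to 68.1) of the negative ones. The differences were -13.8 points (-29.5 to 2.02) and -29.0 points (-40.2 to -16.7). Without cells with CD3 transcripts they were -3.10 and -25.8, and in rows C to P -4.45 and -30.6. The WT difference was thus far smaller without CD3-positive cells and also without rows A and B, while the PD-1-/- one changed little. These sets share cells, and the part of each was not tested.

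The cells were also split by both surface genes together. Of the WT cells, Eomes was in 4 of 17 with Cxcr6 and Itga1 (23.5%, 6.81 to 49.9), 3 of 11 with Cxcr6 only (27.3%, 6.02 to 61), 20 of 31 with Itga1 only (64.5%, 45.4 to 80.8) and 65.1% (59.4 to 70.5) of those with neither. Of the PD-1-/- cells it was in 5 of 40 with both (12.5%, 4.19 to 26.8), 15 of 37 with Cxcr6 only (40.5%, 24.8 to 57.9), 25 of 50 with Itga1 only (50%, 35.5 to 64.5) and 65.7% (59.3 to 71.7) of those with neither. Without CD3-positive cells, Eomes was in 3 of 7 WT cells with both surface genes (42.9%, 9.90 to 81.6) and 0 of 3 with Cxcr6 only, too few to order. On the PD-1-/- plate it was then in 13.6% of 22 cells with both and 40.9% of 22 with Cxcr6 only. Among all kept cells, the shares of WT cells with Itga1 only and with neither lay close together, with overlapping intervals. Tbx21 did not follow. Its share in cells with both surface genes was 70.6% (44 to 89.7) on the WT plate and 82.5% (67.2 to 92.7) on the other, against 66.1% and 70.7% in cells with neither.

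Prdm1, Gata3 and Nfil3 were higher by at least 10 points in WT cells with Itga1 but not in PD-1-/- cells. On the WT plate Prdm1 was in 35.4% (22.2 to 50.5) of cells with Itga1 and 13.5% (9.88 to 17.8) without, and on the PD-1-/- plate in 14.4% (7.92 to 23.4) and 18.5% (14.1 to 23.6). The difference of Gata3 was 15.9 points (-0.24 to 31.2) on the WT plate and -1.98 (-14.0 to 10.4) on the other. That of Nfil3 was 12.7 (-3.00 to 28.5) and -3.21 (-14.7 to 9.03), and all of these intervals for Gata3 and Nfil3 include 0. WT cells with Itga1 held a median of 2595.5 detected genes against 2244 without, and PD-1-/- cells 2404 against 2197, whose part was not tested. Whether the plates differ in the shares of these factors by Itga1 was not tested. Among all genes, 2.29% were at least 10 points higher with Itga1 on both plates and 0.175% lower, against 0 and 1 of the 9 factors. Shares of all genes past 10 points on 1 plate alone are not given, so the WT differences above have none beside them.

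S1pr5, found in 81 WT (22.5%) and 93 PD-1-/- cells (25.4%), separated none of the 9 factors by 10 points on both plates. With S1pr5, Eomes was in 66.7% (55.3 to 76.8) of WT cells and without it in 60.6%, and on the PD-1-/- plate in 60.2% (49.5 to 70.2) and 53.5%, differences of 6.09 (-6.64 to 17.8) and 6.74 (-5.53 to 18.5) points. For Zeb2 the shares with and without S1pr5 were 14.8% (7.90 to 24.4) and 12.9% (9.20 to 17.4) on the WT plate, and 23.7% (15.5 to 33.6) and 8.42% (5.42 to 12.4) on the PD-1-/- plate. On the PD-1-/- plate, where the intervals did not overlap, the difference was 15.2 points (6.13 to 25.6), and 4.96 where at least 10 RPKM counted as detected. On that plate the difference of Irf8 was 9.996 points (-1.17 to 19.8) and that of Nfil3 -13.4 (-24.1 to -1.59). On the WT plate they were -2.03 (-14.3 to 9.14) and -3.07 (-14.9 to 9.67). Cells with S1pr5 held a median of 2074 detected genes on the PD-1-/- plate, against 2330 without. On the WT plate these medians were 2247 and 2278, and the part of this was not tested. Of all genes, 0.222% were at least 10 points higher with S1pr5 on both plates and 0.653% lower.

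**Figure D4:**
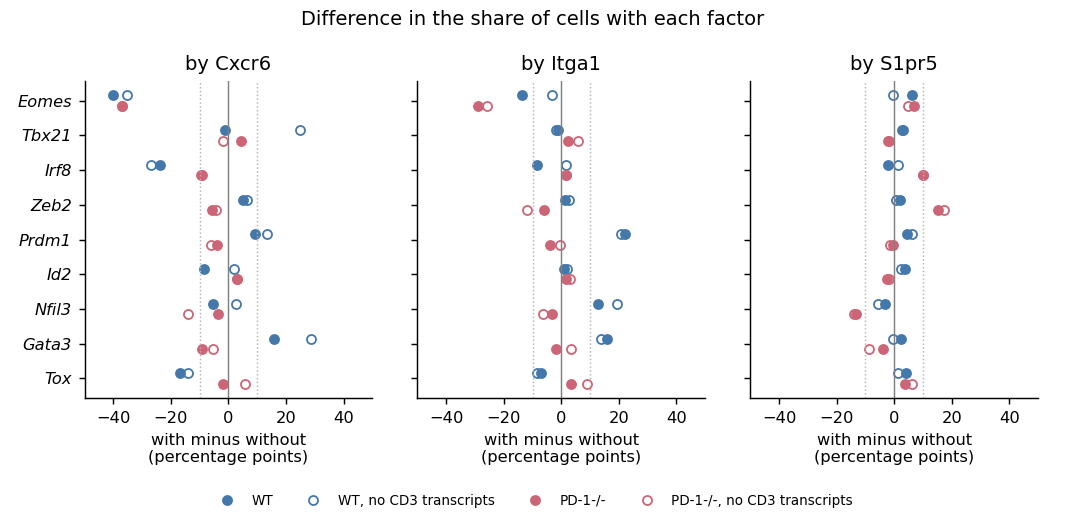
Difference in the share of cells with each factor (percentage points, x axis) between cells with and without Cxcr6, Itga1 or S1pr5, for WT and PD-1-/- cells. Filled points use all kept cells, open points leave out cells with CD3 transcripts, dotted lines mark 10 points either way, and Eomes by Cxcr6 lies furthest to the left, at -40.1 and -37.0.

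Turned around, Cxcr6 was detected in 3.14% (1.27 to 6.36) of the WT cells with Eomes and 15.3% (9.75 to 22.5) of those without, and on the PD-1-/- plate in 9.90% (6.15 to 14.9) and 34.8% (27.5 to 42.6). The WT difference of -12.2 points fell below 10 points in rows C to P (-5.49) and without CD3-positive cells (-5.02), whereas the PD-1-/- difference of -24.9 was -25.7 and -20.1. None of the other 8 factors was at least 10 points higher or lower with Eomes on both plates, where 0.536% and 0.0933% of all genes were. Nfil3 was 7.79 and 11.4 points higher with Eomes, and Irf8 11.3 and 1.66. By Tbx21, again no factor passed on both plates, against 0.828% of all genes higher and 0% lower. Nfil3 was 4.69 and 15.8 points higher with Tbx21 and Irf8 6.41 and 14.1, so both leaned the same way on each plate.

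Among the 36 pairs of factors, co-detection leaned positive on both plates in 18 and negative in 7, and 11 had opposite signs. These are signs only, some of them of values close to 0. Pairs of all genes were not counted beside them, and the part of the number of detected genes was not tested. The phi coefficient, a correlation of detection across cells of 1 library, lay between -0.16 and 0.16 on the WT plate and between -0.13 and 0.18 on the PD-1-/- plate. Id2 and Gata3 were the pair that differed by over 10 points on both plates (12.9 and 22), which rests on 10 WT and 9 PD-1-/- cells without Id2.

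**Figure D5:**
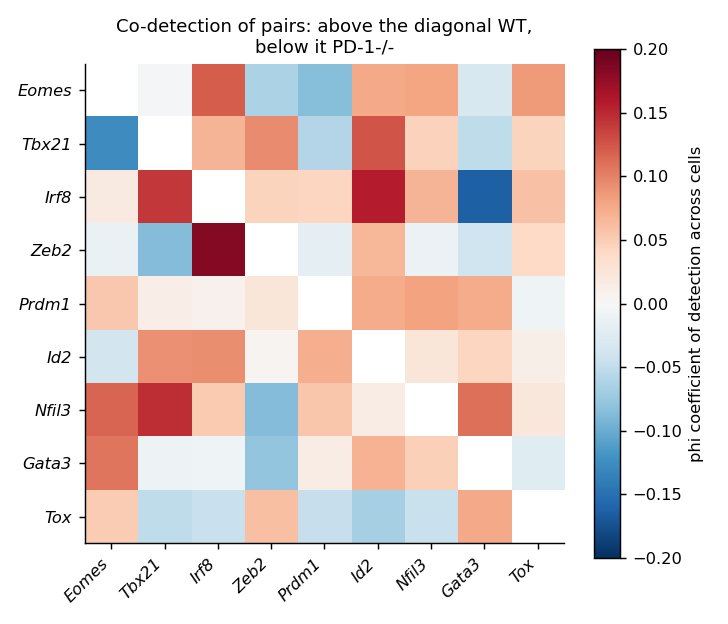
Phi coefficient of detection for each pair of the 9 factors, WT above the diagonal and PD-1-/- below it. Values stay within -0.16 to 0.18, with no block of factors that were found together.

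The genes most like each factor were taken from 6404 genes by the lower of the 2 plates' Pearson r of log2(RPKM + 1), which is a description across cells that share a library and vary in depth. For Irf8 these were Prf1 (0.37), encoding perforin, Gzmb (0.33), encoding granzyme B, and Serpinb9 (0.31), encoding an inhibitor of granzyme B. For Id2 they were Il2rb (0.35), the shared IL-2 and IL-15 receptor chain, Laptm5 (0.31) and H2-K1 (0.28). For Eomes they were the chemokine receptor gene Ccr2 (0.23), the Ly49 receptor gene Klra18 (0.23) and Gzma (0.18). For Tbx21 they were Rgs3 (0.15), Prf1 (0.14) and Uck1 (0.14).

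The remaining factors had weaker neighbors. Nfil3 was most like Plac8 (0.18), Cdc27 (0.15) and Ccdc50 (0.15), and Tox most like Nrgn (0.16), Eif4h (0.14) and Trappc2l (0.14). Gata3 was closest to Pmm2 (0.14), Prex1 (0.13) and Atg16l2 (0.12). Zeb2 was closest to Tmem19 (0.14), Gpcpd1 (0.12) and Flt3l (0.12), and Prdm1 to Mxd1 (0.12), Nkg7 (0.12) and Fam103a1 (0.11). In sparse counts such values carry little.

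Other transcription factors of NK cells and ILC were read by the same rule, 33 of a list of 38 being found in enough cells. With Cxcr6, none was higher and 2 were lower on both plates. Tcf7, encoding TCF-1, was in 42.9% of WT cells with Cxcr6 against 55.1% without, and on the PD-1-/- plate in 28.6% against 41.5%. Myb was in 0 of 28 and 0 of 77 cells with Cxcr6, against 14.8% and 12.5% of the rest. Taken as 3 over the number of cells, the limit on the share of Myb with Cxcr6 was 10.7% and 3.9%. This is not the exact interval, which reaches higher.

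With Itga1, Klf2, a factor that keeps lymphocytes in circulation, was lower (31.2% against 45.2% on the WT plate, 13.3% against 39.5% on the other). With S1pr5 it was higher (55.6% against 39.8%, and 47.3% against 28.2%), while Hif1a, the hypoxia factor, was lower (25.9% against 40.1%, and 29% against 42.5%). Cells with Eomes held Runx3 more often (60.1% against 46.7%, and 68.3% against 55.5%), as well as Lef1 (52% against 40.1%, and 50.5% against 32.9%) and Tcf3 (38.6% against 27.7%, and 47% against 32.3%). They held Ikzf2, encoding Helios, less often (7.62% against 20.4%, and 8.91% against 22%). With Tbx21, Stat4 was the single one that passed, at 84.3% against 74.2% on the WT plate and 78.7% against 63.9% on the PD-1-/- plate.

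Of the 15 other ILC1 and residency genes, 14 were in enough cells, and 11 of them were higher with Cxcr6 and 9 of 14 with Itga1, against 1.61% and 2.29% of all genes. The study had reported Tnfsf10, Il7r, Ly6a, Amica1 and Il21r, with Cxcr6 and Itga1, as higher in clusters of these same cells. These counts are therefore not an independent check. Cd3d, Cd3e and Cd3g were higher with both surface genes too, and CD3 transcripts were in 35.4% and 33.3% of the cells with Itga1 against 15.4% and 19.2% of those without. Of these residency genes, Cxcr6, Itga1, Ly6a, Amica1, Cxcr3 and Ltb were also higher in cells with CD3 transcripts, whose part in these counts was not tested. With S1pr5, of 15 genes of the full list that could be read, none was higher and 1, Amica1, was lower. With Eomes none was higher and 2, Cxcr6 and Tmem176b, were lower, and with Tbx21 none was either. Of the mature NK genes, Ly6c2 was lower with Eomes (18.8% against 35.8%, and 22.8% against 55.5%) and higher with Cxcr6. With Itga1, Klrg1 and Ly6c2 were higher and Klf2 was lower. With S1pr5, Itgam, Klrg1 and Klf2 were higher, the last of which also stands in the list of factors.

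Between the genotypes, the mean level of most factors differed little. The mean of Eomes was 88 RPKM on the WT plate and 75.5 on the PD-1-/- plate, a log2 ratio of -0.22 with a pseudocount of 1 RPKM, and that of Tbx21 was 173.4 and 200.7, a log2 ratio of 0.21. The log2 ratio of Irf8 was -0.24, of Zeb2 -0.40, of Gata3 -0.16 and of Tox -0.03, and those of Id2 and Nfil3 were 0.27 and 0.10. The share of cells with Eomes differed by -6.75 points (PD-1-/- minus WT) and that with Tbx21 by 4.94 points, each with intervals that overlapped between the plates. Within rows A to H the log2 ratio of Eomes was -0.43 and within rows I to P -0.03, so that its size depended on the part of the plate.

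Prdm1 had the largest ratio of the 9 factors. Its mean was 10.6 RPKM on the WT plate and 18.6 on the other, which gives a log2 ratio of 0.76. The share of cells with Prdm1 was nearly the same, 16.4% and 17.5%, while its median in detected cells was 45.7 and 63.2 RPKM and its highest cell was at 420 and 675. Over all kept cells it was the only factor past 1.5-fold, 1 higher and 0 lower of 9. Of all 12030 genes, 11% were as much higher and 14% as much lower, so that 1 of 9 lay near the share of all genes. In rows I to P its log2 ratio was 0.52, short of 1.5-fold, while that of Zeb2 was -0.65, past 1.5-fold lower. The ratio of Prdm1 also fell short in wells with at least 1500 genes (0.53) and with a pseudocount of 10 RPKM (0.48). The median log2 ratio was -0.03 over the factors and -0.03 over all genes, and 4 of the 9 were above 0. Of 36 other factors of the list, none was past 1.5-fold higher and 4 (Bach2, Id3, Sox4 and Zeb1) were lower.

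The surface genes differed more. Cxcr6 was in 28 WT cells (7.78%, 5.23 to 11) and 77 PD-1-/- cells (21%, 17 to 25.6), with mean levels of 53.6 and 190.8 RPKM. Itga1 was in 48 (13.3%, 9.997 to 17.3) and 90 (24.6%, 20.3 to 29.3), at 7.91 and 19.6 RPKM. In rows C to P, Cxcr6 was in 4.35% of cells on the WT plate and 22.1% on the other, and Itga1 in 10.2% and 24.9%. The log2 ratio of Cxcr6 between the genotypes was 1.81 over all kept cells, 2.99 without rows A and B, 0.96 within rows A to H alone, and 3.02 with the wells of rows I to P alone. That of Itga1 was 1.21, 1.67, 0.73 and 1.98, so that the size of both depended on the part of the plate. In spite of these shares, the fraction of Cxcr6-positive cells that held Eomes was 25% and 26% on the 2 plates, with overlapping intervals. Each of these values compares 1 pool and 1 plate with another.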

How the data were processed

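The authors sorted single cells from pooled tumors, made SMART-SEQ2 libraries and deposited RPKM per gene and well, 24490 entries for 768 wells. The submitters' processing notes list TopHat, Cufflinks, mm9 and mm10 without role or version, and the libraries do not mark strand. Columns were matched to samples by plate and well.

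Kept wells had 1000 to 3500 genes above 0, of genes above 0 in at least 3 wells, which left 360 WT and 366 PD-1-/- cells; 8 and 4 wells fell below and 16 and 14 above. No doublet caller was run on sorted wells. Low RPKM values rose in equal steps per gene, from which whole reads were recovered for 11700 genes detected in at least 8 wells (93.1% of 830418 values below 60 reads were whole at a relative tolerance of 0.0003). These reads gave the depth, the counts of reads and the thinning to 100000 reads, which 26 WT and 14 PD-1-/- cells did not reach. No count test was run, since each genotype is 1 pool and cells are not replicates.

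Intervals of shares are exact 95% intervals, which were combined for differences, and the shares of the list genes are given without them. By each marker, genes in at least 5% of kept cells were compared, with 10 percentage points the same way on both plates as the size. Genotype ratios used genes whose mean reached 1 RPKM on a plate, and likeness used genes in at least 10% of cells of each plate. The genes named were the factors, the 3 surface genes, the 3 genes most like each factor and the list genes past the size. Some items that this rule names are not reported here. The factors and lists were chosen with earlier results of these data known, and the split by Cxcr6 and Itga1 together was added after values were seen. Id2 and Nfil3 also stand in lists that the study chose from these cells, and Eomes and Irf8 marked its clusters, so that these are not independent of it. The same holds for the residency genes that it reported for its clusters. Zeb2, Gata3, Cxcr6 (with Fyco1) and Itga1 (with Pelo) overlap annotated genes that also have an entry, and Eomes and Tox overlap Gm33408 and Gm11802, and reads shared by overlapping genes cannot be told apart. Pdcd1 was detected in 9 WT and 47 PD-1-/- cells, and values per gene do not separate the deleted exons, so the genotype labels were not checked. Positions and promoters are RefSeq's for GRCm38.p6, which may not be the build of the files. The 19 alternatives changed the wells, the detection limit, the cells, the plate rows, the depth, the sizes, the pseudocount and the scaling. The software was Python 3.11.15 with scipy 1.17.1, pandas 2.3.3, numpy 2.4.6 and matplotlib 3.10.9, and the scripts were tested on simulated data.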

Additional observations from a re-analysis of the deposited data

Results flagged for a closer look

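Gata3 differed by Cxcr6 in opposite directions on the plates, 15.9 percentage points higher with Cxcr6 in WT cells and -9.31 in PD-1-/- cells, with at least 5 points each way. The intervals of both differences include 0 (-4.83 to 35 and -21.5 to 3.81), and the difference between the plates was not tested.

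Wells with more than 3500 detected genes were in none of the main comparisons, and entered the alternative that kept all wells. There, Irf8 was detected in 100% of 16 WT wells (79.4 to 100), and Nfil3 in 75% of 16 WT wells (47.6 to 92.7) and 100% of 14 PD-1-/- wells (76.8 to 100), above the intervals of the kept cells. Wells with 2 cells and cells with more RNA were not told apart.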

How the results depend on the processing

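No paired analysis was possible because replicate numbers only name wells, each genotype is 1 pool, and no test was made. 3 differences on the WT plate, each with an interval that included 0, took the opposite sign outside that interval, namely Tbx21 by Cxcr6 (24.7 instead of -1.38 points) and Id2 by Cxcr6 (1.75 instead of -8.61) without CD3 cells and Tox by Itga1 (7.77 instead of -7.05) at 10 RPKM. Eomes stayed at least 10 points lower with Cxcr6 on both plates under all 9 alternatives of that comparison. The number of factors lower with Cxcr6 on both plates was 2 instead of 1 with detection at 1 RPKM or 10 RPKM, in rows A to H, in thinned cells and with 5 points as the size. The number lower with Itga1 was 0 instead of 1 with all wells, without cells with CD3 transcripts, without rows A and B, in rows I to P and at 20 points. Counting Cxcr6, Itga1 and S1pr5 too, genes lower with Eomes numbered 0 instead of 1 at 10 RPKM, without CD3 cells, without rows A and B, in rows I to P, in thinned cells and at 20 points, and 2 in rows A to H and at 5 points. At 5 points, 1 gene instead of 0 was higher with S1pr5, 1 with Eomes and 1 with Tbx21. Factors past 1.5-fold higher in PD-1-/- cells numbered 0 instead of 1 with 1500 to 3500 genes per well, in rows I to P, with a pseudocount of 10 and at 2-fold, and 1 factor instead of 0 was lower in rows I to P. The causes were not tested, beyond the stricter size. Of the single values, 17 shares of cells and 10 of 864 differences left the interval of the reported value, 9 of the shares where at least 10 RPKM counted as detected. Means and log2 ratios have no interval here and were judged by a change of more than 1.5-fold, which 1 mean and 0 log2 ratios showed.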
